A study of Mus musculus with 4 samples.

Results

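Liver sinusoidal and vascular endothelial genes were followed in LSK cells of mouse fetal liver (FL). The set holds 10 named genes of the 39186 in the deposited table: *Lyve1*, *Stab2*, *Clec4g*, *Fcgr2b*, *Gpr182*, *Oit3*, *Kdr*, *Flt4*, *Cdh5* and *Pecam1*. They were found by gene symbol, and all 10 were in the table and passed the filter on low values. The set was chosen by name, as endothelial genes whose normalized counts were already known to differ between *Pich*-KO and *Pich*-WT samples, so their difference between the genotypes is given as a description: their calls in the fit over all genes are counted beside the background, and no p-value is given for them.

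The study compared the transcriptomes of sorted FL LSK cells (lineage-negative, Sca-1-positive, c-Kit-positive cells, the population that holds the haematopoietic stem cells) from *Pich*-KO and *Pich*-WT embryos of the C57BL/6 strain, with 2 samples of each genotype. *Pich* encodes a DNA translocase of mitotic chromosomes, and the knockout carries a TALEN-made deletion early in this X-linked gene in every cell of the embryo, the vessels included. The labels give neither age nor sex (FLs in the methods are from E14.5 embryos), and do not say whether the samples came from separate embryos or pools, so p-values measure the spread between these samples. The lineage stain described in the methods lists CD4, CD8, Gr-1, B220 and Ter119, and no antibody in it marks endothelial cells or macrophages.

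Endothelial cells line blood vessels. In the liver sinusoids they form an open, scavenging endothelium that takes up hyaluronan, collagen fragments and immune complexes through receptors such as stabilins, and in the fetal liver the sinusoids surround the growing blood cells. Vessel identity is also set by receptor tyrosine kinases for VEGF and by junction proteins that hold neighbouring endothelial cells together. LSK cells are blood cells, and some endothelial genes, *Pecam1* and *Cd34* among them, are known in both.

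RefSeq promoter windows, 250 bases before to 50 bases after a RefSeq transcription start in GRCm38.p6, were matched for 5 of the 10 genes (*Fcgr2b*, *Kdr*, *Clec4g*, *Stab2* and *Flt4*). The 4 below are shown because they set the sinusoidal scavenger receptor *Stab2* and both VEGF receptors beside *Fcgr2b*, the gene of the set whose level differed in the other direction. They lie at chr10:87007893-87008192 on the minus strand (*Stab2*), chr1:170976022-170976321 on the minus strand (*Fcgr2b*), chr5:75978406-75978705 on the minus strand (*Kdr*) and chr11:49609429-49609728 on the plus strand (*Flt4*). The *Fcgr2b* and *Flt4* windows lie wholly inside these genes as deposited (chr1:170958617-170976547 and chr11:49609263-49652739). For these genes the window therefore holds no sequence upstream of the deposited gene start. Capitals mark the ETS core GGAAG and the GC box GGGCGG, or their reverse complements CTTCC and CCGCCC, and each sequence runs 5′ to 3′ along its gene.
Stab2: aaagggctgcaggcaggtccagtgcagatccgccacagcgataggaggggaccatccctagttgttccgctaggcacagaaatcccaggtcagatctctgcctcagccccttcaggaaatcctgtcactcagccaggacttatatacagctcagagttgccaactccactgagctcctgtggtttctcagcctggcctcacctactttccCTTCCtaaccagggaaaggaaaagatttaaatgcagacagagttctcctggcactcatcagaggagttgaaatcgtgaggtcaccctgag
Fcgr2b: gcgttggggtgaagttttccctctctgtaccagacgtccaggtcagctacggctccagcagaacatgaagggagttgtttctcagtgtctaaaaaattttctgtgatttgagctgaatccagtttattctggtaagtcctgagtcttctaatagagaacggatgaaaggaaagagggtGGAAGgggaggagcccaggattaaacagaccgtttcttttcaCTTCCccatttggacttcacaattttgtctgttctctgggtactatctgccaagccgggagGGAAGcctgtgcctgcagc
Kdr: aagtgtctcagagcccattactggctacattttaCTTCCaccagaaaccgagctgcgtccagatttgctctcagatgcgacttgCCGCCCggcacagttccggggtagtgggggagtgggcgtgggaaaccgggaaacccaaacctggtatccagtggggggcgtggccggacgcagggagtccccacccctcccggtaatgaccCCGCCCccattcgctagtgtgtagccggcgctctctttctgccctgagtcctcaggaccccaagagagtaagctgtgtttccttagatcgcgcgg
Flt4: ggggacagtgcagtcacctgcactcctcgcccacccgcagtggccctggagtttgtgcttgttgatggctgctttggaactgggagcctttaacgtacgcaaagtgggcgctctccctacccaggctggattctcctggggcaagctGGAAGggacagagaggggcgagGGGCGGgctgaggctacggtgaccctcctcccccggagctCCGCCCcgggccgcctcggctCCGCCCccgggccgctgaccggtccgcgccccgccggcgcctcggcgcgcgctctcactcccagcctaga

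The ETS core was present in all 5 matched windows, with 3 matches in *Fcgr2b* and in *Clec4g* and 1 in each of the others. It is a short motif, and 71.4% of the 32851 RefSeq windows of this length held it on one strand or the other. The GC box had 3 matches in *Flt4* and 2 in *Kdr*, and none in the other 3, against 35.7% of all windows with a match. The GC content was 70.3% in *Flt4* and 60.7% in *Kdr*, against 48% in *Fcgr2b*, 51% in *Clec4g* and 53% in *Stab2*, where the median over all windows was 52.7%. The GATA string AGATAA (in 11.2% of windows) was in none of the 5, and other forms of the GATA site were not searched. TATAAA (13.6% of windows) had 1 match, in *Clec4g*. No match of one motif overlapped a match of another. A match is a string of letters, not a bound site.

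Reads on genes numbered from 14703215 to 20933919 per sample. Values are normalized counts, in which 1 read is worth 0.782 to 1.14 depending on the sample, and the log2 difference is that of log2(normalized count + 1) in *Pich*-KO minus *Pich*-WT with its standard error (SE) from limma. *Pich*-WT sample 2 stood apart: it had 0 reads on 4 Y-linked genes, and the other 3 samples had 1607 to 2848. Where leaving out it or another sample moved a difference by over 1.5 times, the value without that sample is given. In bulk RNA, fewer cells of a type and less RNA per cell cannot be told apart.

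Of the 10 genes, 9 were lower in *Pich*-KO at an adjusted p under 0.05 by limma and 0 were higher, beside 9.6% lower and 7.58% higher among all 32428 genes tested. Among the 11794 genes whose mean was 50 or more, 22.6% were lower and 19.5% higher. The median log2 difference of the set was -4.52, beside 0.02 over all genes tested, and 8 of the 10 were at least 4-fold lower, beside 3.55% of all genes. These counts follow from how the genes were picked. For 9 of the 10, both *Pich*-KO samples lay below both *Pich*-WT samples, and for *Fcgr2b* both lay above, beside 27.2% and 28.9% of all genes that did not overlap in these directions. Among genes whose mean was 50 or more, 39.1% did not overlap in the lower direction.

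**Figure D1:**
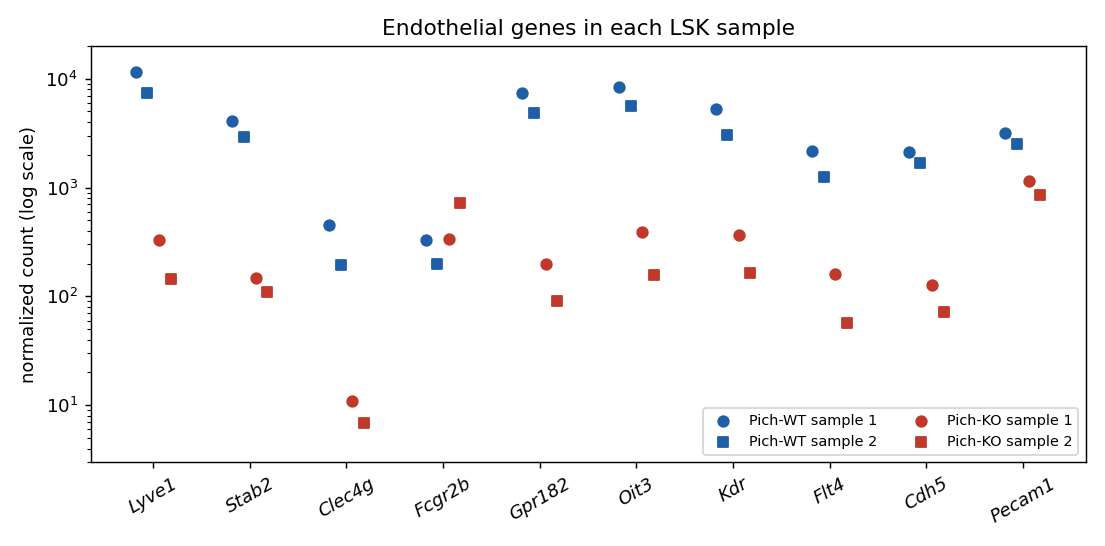
Normalized counts of the 10 endothelial genes on a log axis, with 1 point for each sample (blue, *Pich*-WT; red, *Pich*-KO; circles, sample 1; squares, sample 2). For *Lyve1*, both *Pich*-WT samples were at 7322 or more and both *Pich*-KO samples at 326 or less, and for *Fcgr2b* the red points lie above the blue ones.

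Of the 4 scavenger receptors and lectins of the sinusoid, 3 were much lower in *Pich*-KO and *Fcgr2b* was not. *Lyve1* (ENSMUSG00000030787, chr7:110850607-110863239), a hyaluronan receptor of sinusoidal and lymphatic endothelium that some macrophages also carry, had normalized counts of 11442 and 7322 in *Pich*-WT and 326 and 144 in *Pich*-KO. The gap between genotypes was far wider than that between samples of one genotype: the mean was 39.9-fold lower in *Pich*-KO, with a log2 difference of -5.39 (SE 0.36) that was -5.98 without *Pich*-KO sample 1 and -4.81 without *Pich*-KO sample 2. *Stab2* (ENSMUSG00000035459, chr10:86841198-87008025), the stabilin that clears hyaluronan from blood, was at 4098 and 2923 in *Pich*-WT and at 146 and 110 in *Pich*-KO. Its mean was 27.4-fold lower, with a log2 difference of -4.76 (SE 0.21), and its samples were closer to each other than those of most other genes of the set. *Clec4g* (ENSMUSG00000074491, chr8:3707064-3720651), a C-type lectin of sinusoidal endothelium, had 457 and 195 in *Pich*-WT and 10.9 and 6.82 in *Pich*-KO, where it was the lowest gene of the set. These *Pich*-KO values rest on 10 and 6 reads, and the log2 difference of -4.96 (SE 0.46) is understated by the added 1. Without *Pich*-WT sample 2 it was -5.57, and without *Pich*-WT sample 1 it was -4.34.

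*Fcgr2b* (ENSMUSG00000026656, chr1:170958617-170976547), the inhibitory Fc receptor that sinusoidal endothelium uses to take up immune complexes and that B cells and macrophages also carry, went the other way. It had 331 and 199 in *Pich*-WT and 336 and 724 in *Pich*-KO. The groups did not overlap, but the higher *Pich*-WT sample and the lower *Pich*-KO sample were nearly equal, and *Pich*-KO sample 2 alone was high. The means differed 2-fold, with a log2 difference of 0.94 (SE 0.37) that missed the threshold by limma, passed it by DESeq2 on the recovered reads, and was 0.39 without *Pich*-KO sample 2. The summed count of 5 B cell genes was also highest in *Pich*-KO sample 2, at 1670 beside 1203 in *Pich*-KO sample 1 and 1573 and 1360 in *Pich*-WT. Most of it was *Cd79b*, at 976 and 1209 in *Pich*-KO samples 1 and 2. *Cd79a* was at 119 and 355 there, and *Ebf1* at 68.7 and 59.1. None of the 5 was at 0 in any sample. Macrophage genes were mixed: 7 of 12 were higher in *Pich*-KO sample 1, some by little (*C1qb* had 387 there and 380 in *Pich*-KO sample 2). The rest were higher in *Pich*-KO sample 2. In samples 1 and 2, *Marco* had 3.27 and 77.3, *Clec4f* 2.18 and 28.4, and *Cd5l* 20.7 and 110. *Timd4* had 13.1 and 22.7, and *Cd68* had 723 and 760. The part of either list in the *Fcgr2b* values was not tested. *Fcgr2b* has close relatives among the Fc receptor genes, so the assignment of its reads is uncertain.

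The other two sinusoidal genes differed by about as much as *Lyve1* and *Stab2*. *Gpr182* (ENSMUSG00000058396, chr10:127747276-127751732), an atypical chemokine receptor of sinusoidal and lymphatic endothelium, had 7408 and 4807 in *Pich*-WT and 199.6 and 89.8 in *Pich*-KO. Its mean was 42.2-fold lower and its log2 difference of -5.47 (SE 0.35) was the largest of the 10. *Oit3* (ENSMUSG00000009654, chr10:59422958-59441778), a zona pellucida domain protein known from liver, had 8326 and 5634 in *Pich*-WT and 387 and 157 in *Pich*-KO, 25.7-fold lower in the mean. Its log2 difference was -4.79 (SE 0.38), which became -5.44 without *Pich*-KO sample 1 and -4.14 without *Pich*-KO sample 2.

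The VEGF receptors differed slightly less. *Kdr* (ENSMUSG00000062960, chr5:75932827-75978458), the main signalling receptor for VEGF-A, had 5243 and 3013 in *Pich*-WT and 365 and 164 in *Pich*-KO, 15.6-fold lower in the mean with a log2 difference of -4.02 (SE 0.37). *Flt4* (ENSMUSG00000020357, chr11:49609263-49652739), the receptor for VEGF-C and VEGF-D, had 2151 and 1246 in *Pich*-WT and 159 and 56.8 in *Pich*-KO, 15.7-fold lower with a log2 difference of -4.09 (SE 0.45). The latter was -4.82 without *Pich*-KO sample 1 and -3.35 without *Pich*-KO sample 2. The folds of the receptors were alike although their levels differed, and the SE of either was larger than the gap between them.

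The junction genes split. *Cdh5* (ENSMUSG00000031871, chr8:104101625-104144511), which encodes VE-cadherin of endothelial adherens junctions, had 2122 and 1673 in *Pich*-WT and 126.5 and 71.6 in *Pich*-KO, 19.2-fold lower with a log2 difference of -4.29 (SE 0.27). *Pecam1* (ENSMUSG00000020717, chr11:106654217-106750628), the adhesion molecule CD31 of endothelium, platelets and many blood cells, had 3146 and 2488 in *Pich*-WT and 1138 and 859 in *Pich*-KO. Its mean was 2.82-fold lower with a log2 difference of -1.5 (SE 0.17), the smallest of the 9 lower genes, and it stayed between -1.70 and -1.30 when each sample was left out.

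**Figure D2:**
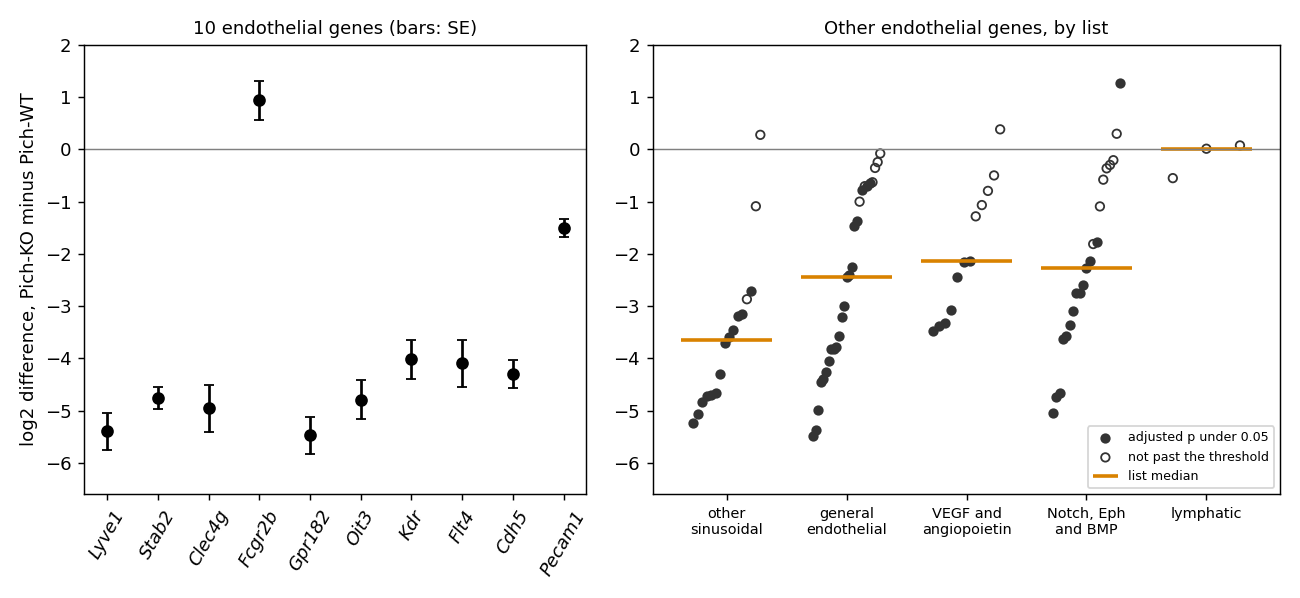
Log2 difference, *Pich*-KO minus *Pich*-WT: left, the 10 genes with SE bars; right, 79 other endothelial genes by list, with filled points past an adjusted p of 0.05, open points not past it, and orange lines at list medians. Apart from *Fcgr2b* at 0.94 and *Pecam1* at -1.5, the 10 genes lie between -5.47 and -4.02. The list medians run from -3.64 for other sinusoidal genes to 0.01 for the 3 lymphatic genes, which were low in every sample.

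Per kilobase of gene length, the level in *Pich*-WT was highest for *Lyve1* at 3214 normalized counts per kilobase, then *Oit3* at 2504 and *Gpr182* at 1545. *Kdr*, *Pecam1*, *Cdh5* and *Stab2* followed at 457, 452, 451 and 401, then *Flt4* at 206, *Clec4g* at 132 and *Fcgr2b* at 45.8. The sample ranges overlapped between *Lyve1* and *Oit3*, among the 4 genes from *Kdr* to *Stab2*, and between *Flt4* and *Clec4g*, and the other neighbours were apart. For scale, *Kit*, the receptor used to sort LSK cells, was at 272 per kilobase in *Pich*-WT and 405 in *Pich*-KO. In *Pich*-KO the order changed at the top: *Pecam1* led at 160 per kilobase, then *Oit3* at 97.6, *Fcgr2b* at 91.5, *Lyve1* at 80.6, *Gpr182* at 36.6, *Kdr* at 29.3, *Cdh5* at 23.6, *Stab2* at 14.6, *Flt4* at 13.1 and *Clec4g* at 3.60. There the sample ranges of every pair of neighbours overlapped, apart from *Cdh5* with *Stab2* and *Flt4* with *Clec4g*, so most of this order is not settled.

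The make-up of the set changed accordingly. Of the summed per-kilobase level of the 10 genes, *Pecam1* held 4.45% and 5.34% in the *Pich*-WT samples and 28% and 30.7% in the *Pich*-KO samples. *Fcgr2b* held 0.505% and 0.460% in *Pich*-WT and 8.89% and 27.9% in *Pich*-KO. *Lyve1* went from 34.6% and 33.6% to 17.1% and 11%. *Kdr* and *Flt4* kept similar shares, at 5.12% and 4.46% against 6.20% and 4.04% for *Kdr*, and 2.30% and 2.02% against 2.96% and 1.54% for *Flt4*.

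The genes were chosen with the difference between genotypes in view. Whether differences between samples of the same genotype also played a part in the choice is not recorded. In *Pich*-WT, sample 1 was above sample 2 for all 10 genes, by 1.26-fold (*Pecam1*) to 2.34-fold (*Clec4g*). In *Pich*-KO, sample 1 was above sample 2 for 9 of the 10, by 1.32-fold (*Pecam1*) to 2.80-fold (*Flt4*), and *Fcgr2b* was the exception, with a ratio of 0.464. So 90% of the set was higher in sample 1 of both genotypes, beside 33.2% of all 11794 genes whose mean was 50 or more. Among the other endothelial genes the count was 52 of 79. It was 7 of 10 for mesenchymal and stellate genes and 5 of 7 for megakaryocyte genes, so high counts were not particular to endothelial genes. For macrophage genes it was 4 of 12, for erythroid and hepatoblast genes 2 of 8 each. For B cell genes it was 1 of 5, and for LSK and stem cell genes 0 of 10. The sample numbers of the genotypes pair nothing in the labels, and the genes of the set are not independent of each other.

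**Figure D3:**
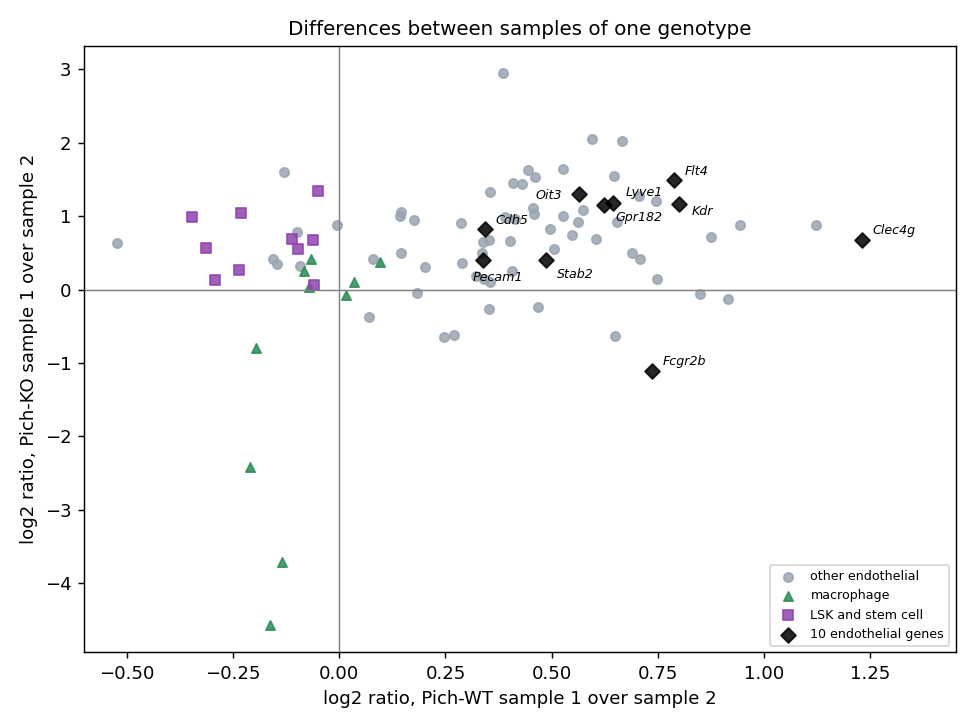
Log2 ratio of sample 1 over sample 2 in *Pich*-WT (horizontal) and in *Pich*-KO (vertical). Diamonds are the 10 genes. The other points are other endothelial, macrophage, and LSK and stem cell genes whose mean was 50 or more, and the remaining lists are not drawn. All diamonds except *Fcgr2b* lie at positive values on both axes, and LSK and stem cell genes at negative values on the horizontal axis.

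Genes outside the lists with the most similar profile were sought over the 4 samples, by the root mean square difference of log2 values centred on each gene's mean, among 11672 genes. *Tmem88* (0.0380), *Tns2* (0.0389), *Arhgef15* (0.0881), *Akr1b8* (0.0914) and *Zcchc24* (0.108) were nearest to the mean profile of the set. *Tmem88*, a membrane protein, had 1002 and 643 in *Pich*-WT and 67.6 and 40.9 in *Pich*-KO. *Arhgef15*, an exchange factor known from endothelium, had 1221 and 780 against 75.3 and 50. Among the 10 genes themselves *Kdr* was nearest to that mean profile (0.182), *Cdh5* (0.256) and *Flt4* (0.293) came next, and *Fcgr2b* was farthest (2.47).

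Other endothelial genes were lower along with the set. Of 81 symbols written down as endothelial, 79 were matched and tested, and 54 were lower in *Pich*-KO, 1 was higher and 24 did not pass. Those without a match were *Ccl21a* and *Figf*, an older name of the matched *Vegfd*. Among all genes tested 9.6% were lower and 7.58% higher, and among those with a mean of 50 or more 22.6% and 19.5%. The median log2 difference of the 79 was -2.72, and it was -2.05 without *Pich*-KO sample 2. At least 4-fold lower were 48 of them, beside 3.55% of all genes tested. These lists were written with earlier results of the data known. Among the 46 not marked as known in blood cells, 32 were lower with a median of -3.14, and among the 33 also known in blood cells, 22 were lower and 1 higher with a median of -2.13.

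Of 16 other sinusoidal genes, 13 were lower, with a median log2 difference of -3.64. All 4 other scavenger receptors and lectins fell, from *Mrc1*, the mannose receptor shared with macrophages, at -4.84 (SE 0.34, adjusted p = 9.57e-05) to *Cd300lg*, a vascular receptor, at -2.72 (SE 0.37, adjusted p = 0.00192). The largest falls were of the BMP ligands that sinusoids release, *Bmp6* at -5.23 (SE 0.68, adjusted p = 0.00142) and *Bmp2* at -5.06 (SE 0.41, adjusted p = 0.000177). *Bmp2* had 1476 and 905 in *Pich*-WT and 52.4 and 21.6 in *Pich*-KO. Without *Pich*-KO sample 1 and without *Pich*-KO sample 2, *Bmp6* was at -6.32 and -4.14, and *Bmp2* at -5.68 and -4.44. The transcription factors *Gata4*, which directs sinusoidal identity, and *Maf* had log2 differences of -4.72 and -3.14, and *Gata4* was at -5.72 without *Pich*-KO sample 1 and at -3.71 without *Pich*-KO sample 2. *Wnt2*, *Wnt9b* and *Rspo3* were at 18 or less in every sample and did not pass by limma, with log2 differences of -2.87, 0.28 and -1.09. By edgeR with TMM scaling on the recovered reads of all samples, *Wnt2* passed as lower (adjusted p = 0.0451). Without *Pich*-KO sample 1 and without *Pich*-KO sample 2, *Wnt2* was at -3.92 and -1.82, and *Rspo3* at -1.74 and -0.44.

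Of 27 general endothelial genes, 21 were lower, with a median log2 difference of -2.44, and surface and junction genes made up 14 of these. *Sox17*, a transcription factor of arterial endothelium and fetal blood stem cells, had 594 and 330 in *Pich*-WT and 8.73 and 9.09 in *Pich*-KO, a log2 difference of -5.49 (SE 0.35, adjusted p = 7.17e-05). *Clec14a*, an endothelial surface lectin, was at -5.36 (SE 0.32, adjusted p = 5.98e-05). The smallest called differences were of *Tal1*, a blood and vessel transcription factor, at -0.65 (SE 0.16, adjusted p = 0.0276), and *Icam2*, an adhesion molecule of both, at -0.70 (SE 0.16, adjusted p = 0.0187). Without the filter on low values neither passed (adjusted p = 0.0662 and 0.0601 by limma), nor did *Tal1* by edgeR with TMM scaling on the recovered reads without *Pich*-WT sample 2 (adjusted p = 0.113) or *Icam2* by edgeR without *Pich*-WT sample 1 (adjusted p = 0.0949). *Cd34*, named after its values were seen, had 8901 and 8940 in *Pich*-WT and 11424 and 6226 in *Pich*-KO, with a log2 difference of -0.08 (SE 0.23) and overlapping groups.

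In the VEGF and angiopoietin list the receptors and ligands differed in count. All 5 receptors fell, from *Tek*, the angiopoietin receptor, at -3.48 (SE 0.42, adjusted p = 0.00110) and *Nrp2*, a VEGF co-receptor, at -3.38 (SE 0.35, adjusted p = 0.000508) to *Nrp1* at -2.13 (SE 0.16, adjusted p = 0.000128). Of 7 ligands, 2 fell: *Vegfc*, which activates *Flt4*, at -2.44 (SE 0.49, adjusted p = 0.0115) and *Vegfb*, a ligand of *Flt1*, at -2.16 (SE 0.26, adjusted p = 0.00108). Without *Pich*-KO sample 1 and without *Pich*-KO sample 2, *Tek* was at -4.24 and -2.73, and *Vegfc* at -3.24 and -1.64. *Vegfa*, the main ligand of *Kdr*, was at 20.3 and 21 in *Pich*-WT and at 19.6 and 37.5 in *Pich*-KO, a log2 difference of 0.38 (SE 0.45) that did not pass. By edgeR, 4 ligands were lower without *Pich*-KO sample 1 and 2 with all samples. The difference between receptors and ligands was not tested.

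Of 21 genes of vessel Notch, Eph and BMP signalling, 13 were lower and 1 higher. *Efnb2*, the ephrin of arteries, and its receptor *Ephb4*, of veins, had log2 differences of -5.04 (SE 0.43, adjusted p = 0.000234) and -4.75 (SE 0.26, adjusted p = 4.30e-05). *Id3*, a BMP target, was at -1.77 (SE 0.10, adjusted p = 5.41e-05). The higher gene was *Notch1*, a receptor known in vessels and in blood progenitors, with 846 and 671 in *Pich*-WT and 2155 and 1524 in *Pich*-KO, at 1.27 (SE 0.19, adjusted p = 0.00305). *Notch4*, the endothelial Notch receptor, named after its values were seen, had 545 and 386 against 50.2 and 28.4. None of the 3 lymphatic genes tested passed by limma or DESeq2, and 0 were at an unadjusted p under 0.05 by limma. By edgeR *Prox1* and *Reln* did not pass, and *Pdpn* was left out by its filter. *Prox1*, the transcription factor of lymphatic identity, had 20.3 and 24 in *Pich*-WT and 22.9 and 21.6 in *Pich*-KO. *Reln* was at 24 to 31.6, *Pdpn* was at 3.91 or less in every sample, and *Ccl21a* was not matched. These low values limit what the list can show about lymphatic endothelium.

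Markers of other cells moved with the set, and their part in its differences was not tested. Their counts stand beside 9.6% lower and 7.58% higher among all genes tested, and 22.6% and 19.5% among those with a mean of 50 or more. All 12 macrophage genes were lower (median log2 difference -5.01). Their summed normalized count was 56825 and 59059 in *Pich*-WT and 9041 and 7973 in *Pich*-KO, and *Vsig4* was at 0 in *Pich*-KO sample 2. Most of the *Pich*-KO sums was *Csf1r*, at 7268 and 6111, which was at 16306 and 17259 in *Pich*-WT. The sums therefore show a smaller difference than most genes of the list. *Adgre1*, the macrophage marker F4/80, was at -4.84 (SE 0.16, adjusted p = 7.00e-06), and *Csf1r*, the receptor for the macrophage growth factor, was at -1.33 (SE 0.10, adjusted p = 0.000111). For comparison, the summed count of the 9 endothelial genes without *Fcgr2b* was 44393 and 29301 in *Pich*-WT and 2859 and 1660 in *Pich*-KO. The *Pich*-WT samples thus differed in the endothelial sum and were nearly level in the macrophage sum.

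Erythroid genes were lower for 7 of 8 (median -2.05), with sums of 156291 and 118555 in *Pich*-WT and 27549 and 30669 in *Pich*-KO. *Alas2*, the haem synthesis enzyme of red cells, was at -3.07 (SE 0.18, adjusted p = 5.75e-05). Hepatoblast genes were lower for 5 of 8 (median -0.82), with sums of 5102 and 4620 against 3561 and 2816. The marker albumin (*Alb*) was at -0.83 (SE 0.13, adjusted p = 0.00400). By edgeR, 5 hepatoblast genes were lower with all samples and 2 without *Pich*-WT sample 1.

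Megakaryocyte genes were lower for 3 of 7 (median -0.96): *Pf4*, a platelet chemokine, at -3.12 (SE 0.21, adjusted p = 8.14e-05), and *Gp9* and *Itga2b*, platelet receptor chains, at -0.96 and -0.86. The others, *Ppbp*, *Gp1ba*, *Gp6* and *Itgb3*, were at -1.95, -1.37, -0.94 and -0.01 and did not pass. The median of the list was -2.02 without *Pich*-WT sample 2 and -0.48 without *Pich*-WT sample 1, and edgeR called 6 and 1 of the 7 lower in these settings and 4 with all samples. The 4 that did not pass were between -3.52 and -0.71 without *Pich*-WT sample 2 and between -0.72 and 0.68 without *Pich*-WT sample 1.

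The remaining lists had calls in both directions or none. Mesenchymal and stellate genes had 1 lower and 1 higher of 10 by limma (median 0.47). The lower was *Cxcl12*, a chemokine, at -1.49, and the higher was *Col1a1*, a collagen chain, at 1.30 (SE 0.36, adjusted p = 0.0436), which did not pass with a pseudocount of 0.1 or without the filter (adjusted p = 0.0870 and 0.115 by limma). By edgeR on all samples 4 were higher, *Col1a2*, *Col3a1* and *Pdgfrb* besides *Col1a1*, and 0 were without *Pich*-WT sample 2. None of 5 B cell genes passed by limma or DESeq2 (median -0.22), with 1 at an unadjusted p under 0.05 by limma, and *Ms4a1* passed as lower by edgeR with TMM scaling on the recovered reads. Among 10 LSK and stem cell genes, 4 were lower and 1 higher (median -0.74). The lower genes, named after their values were seen, were *Procr*, *Hlf*, *Mecom* and *Slamf1*, which mark or regulate blood stem cells, with log2 differences of -2.88, -2.37, -2.10 and -0.90. *Ly6a*, which encodes Sca-1, rose by 1.74 (SE 0.14, adjusted p = 0.000167), and *Kit* at 0.54 (SE 0.20, adjusted p = 0.114) and *Flt3*, a cytokine receptor of progenitors, at -0.53 (SE 0.17, adjusted p = 0.0723) did not pass. By edgeR 4 were lower with all samples and 7 without *Pich*-KO sample 1. *Kit* had 2328 and 2513 in *Pich*-WT and 4447 and 2772 in *Pich*-KO.

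**Figure D4:**
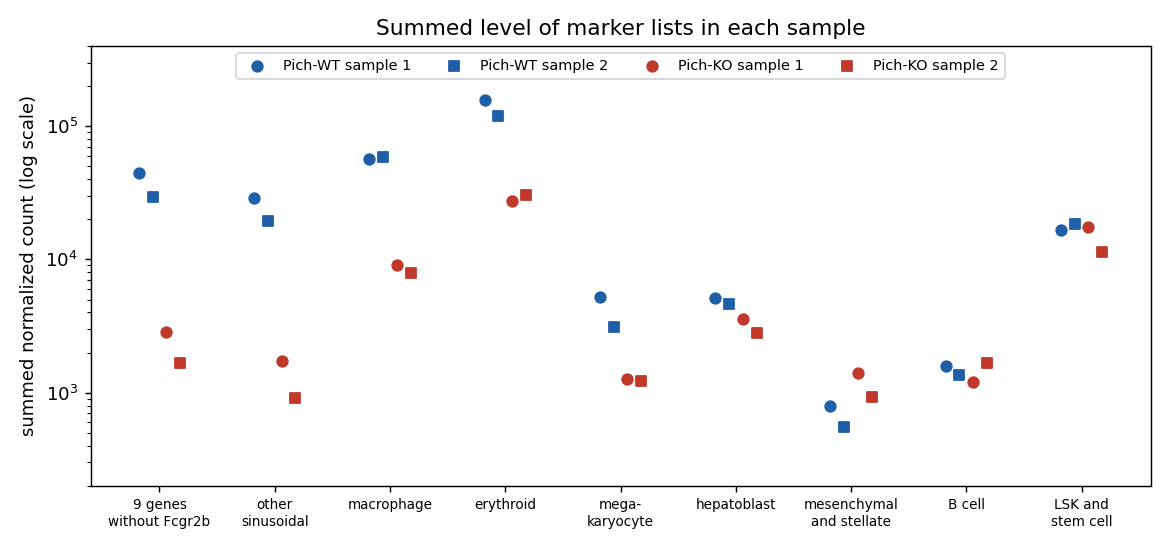
Summed normalized count of each marker list on a log axis, with 1 point for each sample (blue, *Pich*-WT; red, *Pich*-KO; circles, sample 1; squares, sample 2). The 9 endothelial genes, other sinusoidal, macrophage, erythroid and megakaryocyte lists have both red points well below both blue ones. The hepatoblast list has both red points below, and the mesenchymal and stellate list has both above. Most of the macrophage sum in *Pich*-KO is *Csf1r*. The B cell list and the LSK and stem cell list overlap.

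The calls were made with 2 samples a genotype, where an exact permutation test of a single gene cannot go below a two-sided p of 0.333. Leaving out any 1 sample left limma with 1 residual degree of freedom and 0 genes called, while 5757 to 8599 genes, among them 9 or 10 of the set, were at an unadjusted p under 0.05. By edgeR with TMM scaling on the recovered reads, 55 of the other endothelial genes were lower with all samples, beside 20.7% of all genes tested that way. Without *Pich*-KO sample 1, *Pich*-KO sample 2, *Pich*-WT sample 1 and *Pich*-WT sample 2, 61, 56, 51 and 55 of them were lower, beside 21.4%, 18.4%, 12.6% and 14.1% of all genes. In each of these fits the lone sample of a genotype is assumed to vary like the samples of the other. At 5 of the 10 genes (*Stab2*, *Fcgr2b*, *Clec4g*, *Gpr182* and *Cdh5*) the annotation holds an overlapping gene on the other strand, and the library kit does not mark strand, so reads of the pair could not be told apart.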

How the data were processed

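One table held the RNA sequencing of FL LSK cells, with 2 samples of each genotype. Its sample values are a signal that the authors made from read counts on genes and scaled per sample; dividing by the value of 1 read gave whole reads for 100% of values. The submitters' processing notes name Bowtie 0.12.2 and the builds mm8 and mm9, but the deposited coordinates are those of GRCm38: 39163 genes matched GENCODE M21, 97.8% with the same start and end, all 10 genes of the set among them. The counter, and which step used Bowtie, are not given in the sources used here. The authors' deposited fold changes and p-values were not used.

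Genes with a mean of at least 1 were fitted with limma 3.58.1 (R 4.3.3) on log2(value + 1), with a trended prior variance, and p-values were adjusted by Benjamini-Hochberg over all 32428 genes; an adjusted p under 0.05 was called. The fit was tested on simulated data. Alternatives were a pseudocount of 0.1, no filter, at least 10 in every sample, 1 prior variance, edgeR 4.0.16 and DESeq2 1.42.0 on recovered reads, a replicate block, leaving out each sample and, added after the data were seen, edgeR without each sample.

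The 10 genes and all lists were chosen with earlier results of these data known. Named besides the 10 were, in each endothelial list, the 2 called genes that differed most and the 2 that differed least on the log2 scale, the first 3 genes of other lists as needed, and the 5 genes with the most similar profile. Further names were chosen after their values were seen. One further B cell marker was taken off its list and is not reported here.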

Additional observations from a re-analysis of the deposited data

How the results depend on the processing

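Among the 10 genes, 9 were lower in *Pich*-KO under a pseudocount of 0.1, without a filter, and with edgeR (TMM or upper-quartile scaling), DESeq2 and the replicate block. With at least 10 in every sample, *Clec4g* was left out and 8 of 9 were lower. These counts follow from how the genes were picked. *Fcgr2b* was called higher by DESeq2, with the block, and by edgeR without *Pich*-KO sample 1 or without *Pich*-WT sample 1. The median log2 difference of the set ranged from -4.91 to -4.00 when samples were left out, and from -4.54 to -4.29 otherwise.

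With 1 prior variance for all genes, limma called 0 genes in either direction (0 of the set, 0 of the other endothelial genes), while 7377 genes, 9 of the set and 54 of the other endothelial genes, were at an unadjusted p under 0.05. Leaving out one sample gave 0 calls by limma and, by edgeR, 1717 to 3685 genes higher and 2270 to 3917 lower over all genes, 51 to 61 other endothelial genes lower and 1 to 2 higher, and 9 of the set lower.

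The labels do not say whether same-numbered samples were paired. The correlation of same-numbered deviations was 0.0117 over 11794 genes, a value over all genes that cannot settle it. With the replicate block, 3122 genes were higher and 3874 lower, against 2459 and 3113 without it, and 59 other endothelial genes were lower, against 54.

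Of the B cell genes, *Cd79a* and *Cd79b* reversed where a sample was left out. *Cd79a*, at -0.22, ranged from -1.0 to 0.56 by limma and was 0.55 and 0.38 by edgeR without *Pich*-KO sample 1 and *Pich*-WT sample 1. *Cd79b*, at 0.01, ranged from -0.14 to 0.17 by limma and was -0.10 by edgeR without *Pich*-KO sample 2. The cause was not tested. Depth limits *Clec4g* in *Pich*-KO, at 6 to 10 reads, and *Bmp6*, *Efnb2* and *Sox17* there.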
